A study of Mus musculus with 6 samples.

Results

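The retinol and retinal dehydrogenases are the enzymes that set how much retinoic acid a tissue can make from vitamin A. The 10 genes described here, out of 18710 genes tested on the same arrays, are Rdh10, Dhrs9, Adh1, Adh4, Adh7, Aldh1a1, Aldh1a2, Aldh1a3, Dhrs3 and Dhrs4. They were taken by symbol, as the probe sets annotated to that gene and to no other, and each of the 10 turned out to have 1 probe set. RNA came from spleens of mouse embryos at E13.5, 3 samples labelled Tlx1 heterozygous and 3 labelled Tlx1 homozygous, each on its own Affymetrix array. Tlx1 is a homeobox transcription factor needed for spleen development, and the title of the series asks about its control of retinoic acid signalling. The labels give the zygosity but not the allele, the strain or any treatment, no wild-type group was analysed here, and they do not say whether a sample is 1 embryo or a pool. The p-values therefore reflect the spread among these 6 samples alone, and that spread may be technical.

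Retinoic acid is made from retinol in 2 oxidations. The first, to retinal, is reversible: membrane-bound short-chain dehydrogenases such as Rdh10 and cytosolic alcohol dehydrogenases oxidise retinol, and reductases such as Dhrs3 turn retinal back into retinol. The second, from retinal to retinoic acid, is irreversible and is carried out by the retinaldehyde dehydrogenases Aldh1a1, Aldh1a2 and Aldh1a3, of which Aldh1a2 supplies most of the retinoic acid of the early embryo and is known from mesoderm and mesothelium.

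Values are intensities made with GCRMA, a method that corrects the background of array probes and scales the arrays to each other, and they are linear, with medians of 106 to 110 on the arrays. A log2 fold change is homozygous minus heterozygous on the log2(intensity + 1) scale, given with its standard error (SE), and a gene is called when its limma p, adjusted by the Benjamini-Hochberg method over all 18710 genes, is below 0.05. Tlx1 was at 706 to 825 on the heterozygous arrays and at 171 to 209 on the homozygous arrays, lower on every homozygous array as labelled, although it is not known here whether its probe set lies in the altered part of the gene. Arrays correlated at 0.995 to 0.997 within a genotype and at 0.989 to 0.993 between genotypes. The other spleen mesenchyme markers Nkx2-5, Nkx3-2, Tcf21, Barx1, Pdgfra and Pdgfrb were on no array below 171, the lowest value of Tlx1. Of these 7 spleen mesenchyme markers, Tlx1 included, 5 fell (all but Barx1 and Pdgfra), with summed intensities of 9959 to 10122 on heterozygous and 8141 to 8649 on homozygous arrays. Of the Y-linked genes, Eif2s3y was at 600 and 735 on heterozygous arrays 1 and 3 and at 391 to 417 on the other 4. Kdm5d was at 348 and 377 against 206 to 228, and Xist at 901 and 812 against 1478 to 1856, for the same arrays. The sexes may thus be unequally represented between the genotypes, and differences of sex and of genotype cannot be fully told apart.

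Of the 10 dehydrogenase genes, Adh1 and Dhrs3 rose in homozygous spleens, none fell, and 8 did not pass. Without adjustment limma gave a p below 0.05 to 4 that were higher (Adh1, Dhrs3, Aldh1a2 and Adh7) and 1 that was lower (Rdh10). Such p-values were common over all genes: the limma p of Rdh10 (0.0172) ranked only 4232 among 18710. The share of all genes with an unadjusted p below 0.05 was not counted, here or for the lists below. Adh1 oxidises retinol and Dhrs3 reduces retinal, so the genes that rose encode enzymes working in opposite directions on the same step. Across all genes 17.0% were called, 10.4% as higher and 6.56% as lower, so 2 calls in 10 lies near the background. All 10 genes passed the filter on low values. The groups did not overlap for 7 of the 10, where 38.3% of all genes had groups that did not overlap, and the 5 of these that were not called are Aldh1a1, Aldh1a2, Aldh1a3, Rdh10 and Adh7. The median log2 fold change of the 10 was 0.14, against 0.02 over all genes. After cyclic loess, which removes trends with brightness between arrays, these medians were 0.07 and 0.01. In whole-organ RNA more cells of a type and more RNA per cell cannot be told apart, which holds for every value given here.

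**Figure D1:**
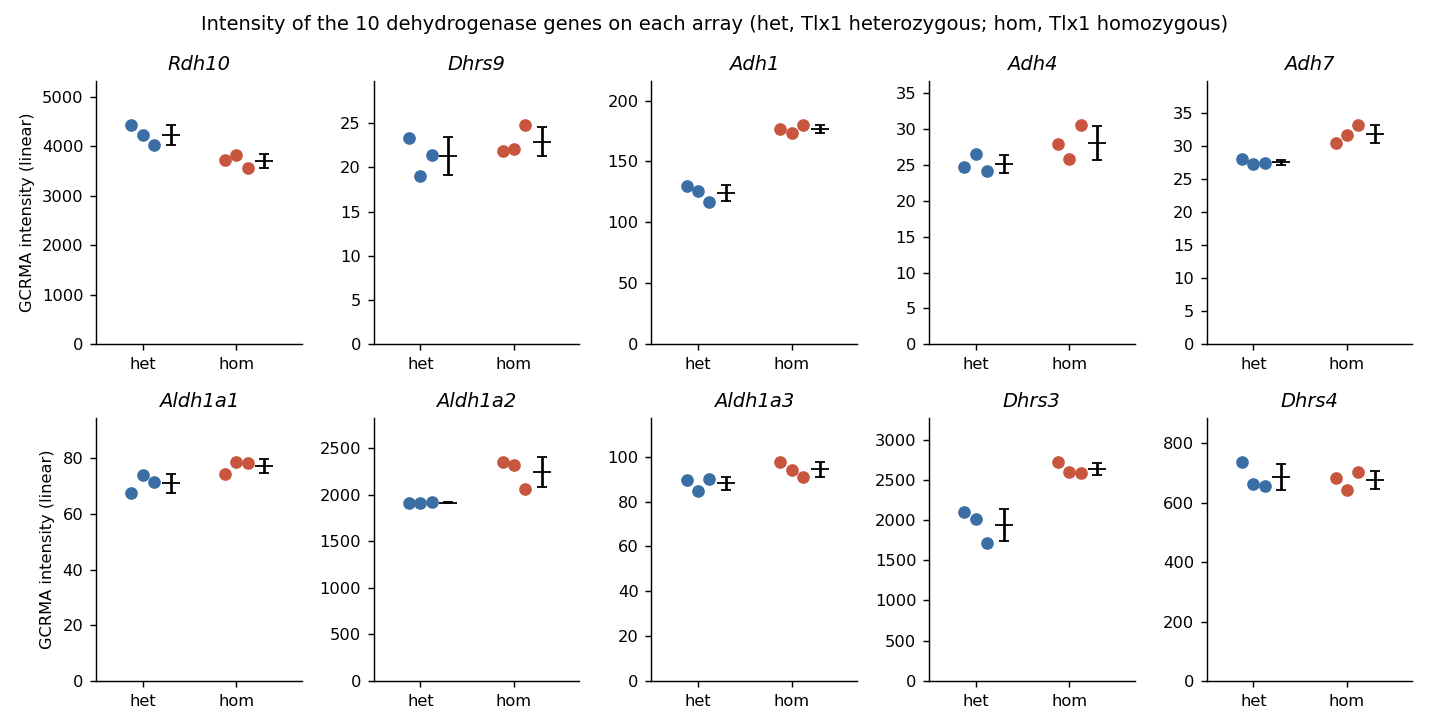
GCRMA intensity (linear, from 0) of each dehydrogenase gene on the 3 heterozygous (blue) and 3 homozygous (red) arrays, with the mean and SD of each group beside the points. The groups are clear of each other for Adh1 and Dhrs3 and by less for Rdh10 and Aldh1a2, and they overlap for Adh4, Dhrs4 and Dhrs9.

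Rdh10 encodes the main retinol dehydrogenase of the embryo, without which little retinal is formed. Its intensity was 4435, 4236 and 4028 on heterozygous arrays 1 to 3 and 3718, 3832 and 3566 on homozygous arrays 1 to 3. Every homozygous array was below every heterozygous array, but the gap between the nearest 2 arrays was smaller than the range within the heterozygous group. The means were 4233 ± 203 and 3705 ± 134 (SD, n = 3), a log2 fold change of −0.19 ± 0.07 (SE; 95% interval −0.34 to −0.04) with an adjusted p = 0.0759 in limma, which misses the threshold. The adjusted p was 0.0191 with a variance trend and 0.047 with array weights, and the gene passed under no other alternative (−0.23 to −0.16).

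Dhrs9, a short-chain dehydrogenase reported to oxidise retinol, gave a dim signal. It was at 23.3, 19.0 and 21.4 on the heterozygous arrays and at 21.8, 22.1 and 24.8 on the homozygous arrays, so the groups overlapped. The log2 fold change was 0.11 ± 0.09 (SE; 95% interval −0.09 to 0.31) with an adjusted p = 0.428 in limma. These intensities lie close to the filter floor of 15 and below the lower quartile of every array (35.8 to 38.0), and they are no proof that the gene is expressed.

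Adh1, a cytosolic alcohol dehydrogenase that oxidises ethanol and retinol and is best known for clearing retinol when it is in excess, showed the largest difference of the 10. Its intensity was 130, 126 and 117 on heterozygous arrays 1 to 3 and 177, 173 and 180 on homozygous arrays 1 to 3. All homozygous arrays lay well above all heterozygous arrays, and the spread within a group was small. The means were 124 ± 6.51 and 177 ± 3.62 (SD, n = 3), a rise of 1.42-fold. The log2 fold change was 0.51 ± 0.06 (SE; 95% interval 0.36 to 0.65), with an adjusted p = 0.00232 in limma. Adh1 kept its call in all 19 alternatives, with estimates of 0.46 to 0.54 and adjusted p-values of 0.000713 to 0.0256.

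The other alcohol dehydrogenases were dim. Adh7, an enzyme of upper digestive tract epithelium with high activity toward retinol, was at 28.0, 27.3 and 27.4 on the heterozygous arrays and at 30.5, 31.7 and 33.2 on the homozygous arrays. Its groups did not overlap, although they differed by only a few intensity units (log2 fold change 0.20 ± 0.06 SE; 95% interval 0.06 to 0.34; adjusted p = 0.056 in limma). Adh7 passed under none of the 18 alternatives that kept it (adjusted p = 0.053 to 0.258). Adh4, a class of alcohol dehydrogenase known mainly from liver, was at 24.7, 26.6 and 24.1 on the heterozygous arrays and at 27.9, 25.8 and 30.6 on the homozygous arrays. Its groups overlapped, with a log2 fold change of 0.15 ± 0.08 (SE; 95% interval −0.03 to 0.33; adjusted p = 0.206 in limma).

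In the RefSeq gene order of GRCm38.p6, Adh7, Adh1, Adh6a, Adh6b, Adh4 and Adh5 follow one another as a cluster of 6 neighbouring protein-coding genes. Adh1 was the only member of this cluster that passed. Adh6a was at −0.09 (adjusted p = 0.472), Adh6b at 0.20 (adjusted p = 0.0606) and Adh5, which detoxifies formaldehyde in most tissues, at −0.03 (adjusted p = 0.829), all in limma. Mean intensities in heterozygous and homozygous spleens were 32.8 and 30.8 for Adh6a and 36.6 and 42.2 for Adh6b. Adh5 was bright, at 1589 and 1562. Whether the change of Adh1 differs from that of its neighbours was not tested.

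The upstream sequences of Adh1 and Aldh1a2 are shown to set the gene with the largest rise beside the retinoic acid synthesising gene that lay just short of the threshold. RefSeq promoter windows of GRCm38.p6 were at hand for 8 of the 10 genes, all but Rdh10 and Aldh1a3. Those of Dhrs3, which has several annotated starts, are described but not printed. Each run is the 250 bases before an annotated start, 5′ to 3′. Capitals mark CG dinucleotides, which are dense in promoters of the CpG island class.
Adh1, chr3:138277335-138277584, plus strand: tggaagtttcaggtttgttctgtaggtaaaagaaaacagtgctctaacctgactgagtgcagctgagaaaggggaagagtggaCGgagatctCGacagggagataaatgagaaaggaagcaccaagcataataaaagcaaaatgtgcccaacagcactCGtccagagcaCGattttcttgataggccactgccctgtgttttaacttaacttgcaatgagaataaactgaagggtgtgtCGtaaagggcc
Aldh1a2, chr9:71215539-71215788, plus strand: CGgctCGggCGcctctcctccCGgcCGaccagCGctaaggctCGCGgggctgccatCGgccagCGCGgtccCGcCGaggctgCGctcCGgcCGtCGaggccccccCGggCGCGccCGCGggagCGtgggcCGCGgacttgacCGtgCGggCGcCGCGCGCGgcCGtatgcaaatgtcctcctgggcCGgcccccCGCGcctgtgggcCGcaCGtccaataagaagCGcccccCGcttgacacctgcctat

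The windows varied in base composition. The Adh1 window had 5 CG dinucleotides and 44.8% G and C, that of Aldh1a2 40 and 77.6%, and that of Adh4 1 and 41.6%. The 3 windows of Dhrs3 had 19 and 61.6%, 8 and 46.8%, and 7 and 44.8%, so some of its annotated starts resemble that of Adh1. Over all genes the median of 32851 windows was 6 CG dinucleotides and 52.4% G and C. Retinoic acid receptors bind pairs of a hexamer whose variants were searched on both strands. AGGTCA was present in 14.0% of all windows, the variant AGTTCA was in 11.8%, another variant GGGTCA was in 11.6% and the last, GGTTCA, was in 8.85%, and 38.6% held any of them. None was found in the windows of Adh1, Aldh1a2 or Dhrs4, nor in any of the 3 windows of Dhrs3. Adh4 held AGGTCA starting 133 and 11 bases before its annotated start, and Dhrs9 held it on the opposite strand. Also on the opposite strand, Adh7 held AGTTCA and the window at the second annotated start of Aldh1a1 held GGGTCA. The direct repeats of these hexamers known as DR1, DR2 and DR5 were found in 0.164%, 0.174% and 0.0883% of all windows and in none of the windows of these genes. A match is a string of letters, and its absence says only that these letters are not in this window.

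**Figure D2:**
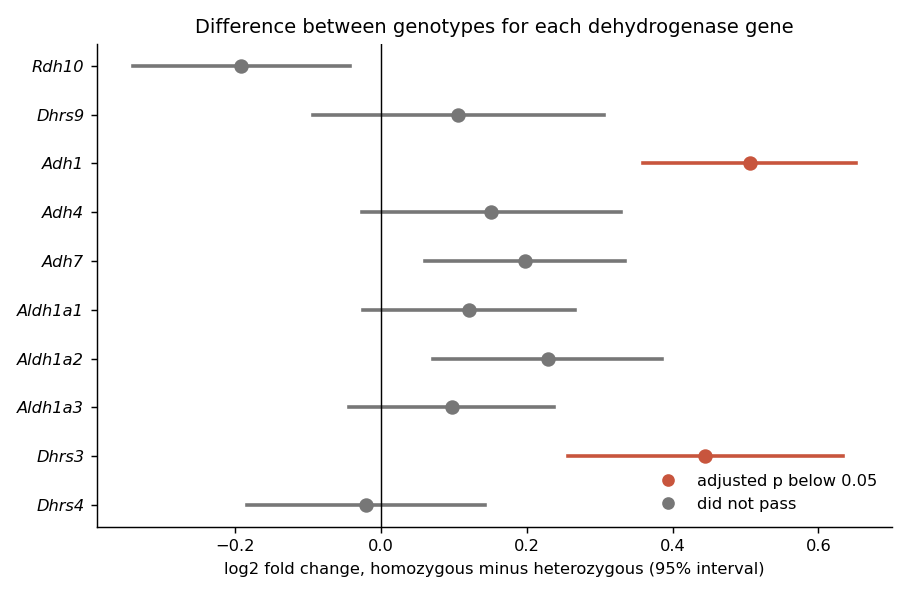
Log2 fold change, homozygous minus heterozygous, of each dehydrogenase gene with its 95% interval from limma, in red where the adjusted p is below 0.05. Adh1 (0.51) and Dhrs3 (0.45) stand to the right of the others, and Rdh10 (−0.19) has the lowest estimate.

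Aldh1a2, the retinaldehyde dehydrogenase that makes most embryonic retinoic acid, was measured at 1913, 1906 and 1921 on heterozygous arrays 1 to 3 and at 2355, 2322 and 2062 on homozygous arrays 1 to 3. The heterozygous arrays were nearly identical, and homozygous array 3 lay between them and the other homozygous arrays. The means were 1913 ± 7.19 and 2246 ± 160 (SD, n = 3), 1.17-fold apart, and the groups did not overlap. The log2 fold change was 0.23 ± 0.07 (SE; 95% interval 0.07 to 0.39) with an adjusted p = 0.0537 in limma, just short of the threshold. Without homozygous replicate 3 the estimate was 0.29 and passed (adjusted p = 0.0295). Aldh1a2 also passed under 6 of the 13 alternatives that kept all arrays, with adjusted p-values from 0.0137 (variance trend) to 0.0483 (quantile normalization), and its estimates were 0.19 to 0.29 over all 19.

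The mesothelium, where Aldh1a2 is known to be active, was checked with 8 markers. Of these Msln rose and Wt1 fell, and 6 did not pass. Msln was dim, at 50 and 69.5 in heterozygous and homozygous spleens (means), while Wt1 was bright, at 2208 and 1758. The summed intensity was 7451 to 7972 on heterozygous and 7539 to 7618 on homozygous arrays, which overlap. The lowest value of a mesothelium marker was 45.8, that of Msln on heterozygous array 2.

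Aldh1a1 and Aldh1a3, the other retinaldehyde dehydrogenases, did not pass. Aldh1a1 was at 67.4, 74.1 and 71.3 on the heterozygous arrays and at 74.3, 78.8 and 78.4 on the homozygous arrays, and the highest heterozygous and the lowest homozygous array were almost level (log2 fold change 0.12 ± 0.06 SE; 95% interval −0.03 to 0.27; adjusted p = 0.219 in limma). Its close paralog Aldh1a7, at 0.20 (adjusted p = 0.071), may share sequence with the Aldh1a1 probes, so both values are uncertain as separate results. Aldh1a3, at 89.5, 84.7 and 89.9 against 97.8, 94.2 and 90.9, had a log2 fold change of 0.10 ± 0.06 (SE; 95% interval −0.04 to 0.24; adjusted p = 0.304 in limma). Here too the nearest arrays of the groups were almost level.

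Dhrs3, the reductase that returns retinal to retinol and is itself known to be induced by retinoic acid, was the second gene that rose. It was at 2099, 2008 and 1719 on heterozygous arrays 1 to 3 and at 2727, 2596 and 2585 on homozygous arrays 1 to 3. The gap between the groups was wider than the range of either, and heterozygous array 3 was lower than the other heterozygous arrays. The means were 1942 ± 198 and 2636 ± 79.0 (SD, n = 3), a rise of 1.36-fold. The log2 fold change was 0.45 ± 0.08 (SE; 95% interval 0.26 to 0.63) with an adjusted p = 0.0108 in limma. The call was kept in every refit without 1 array (0.36 to 0.50) and in every other alternative except the fit that adjusts for the Y-linked level, where the estimate was 0.37 and the adjusted p = 0.0821.

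Dhrs4, a short-chain enzyme that reduces retinal with NADPH, did not differ between the genotypes beyond the spread of the arrays. Its intensity was 739, 665 and 658 on the heterozygous arrays and 684, 643 and 704 on the homozygous arrays, and the groups overlapped throughout. The log2 fold change was −0.02 ± 0.07 (SE; adjusted p = 0.862 in limma), and its 95% interval of −0.18 to 0.14 leaves out changes of the size seen for Adh1 and Dhrs3. The estimate turned above 0 in 5 alternatives (up to 0.03).

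Rdh10 and Dhrs3 drive the same reaction in opposite directions, and their proteins are known to bind each other, so their difference on each array was taken. The log2 intensity of Rdh10 minus that of Dhrs3 was 1.08, 1.08 and 1.23 on heterozygous arrays 1 to 3 and 0.45, 0.56 and 0.46 on homozygous arrays 1 to 3. The difference was thus lower on every homozygous array, with means of 1.13 ± 0.09 and 0.49 ± 0.06 (SD, n = 3), a shift of −0.64. It was −0.67 to −0.59 without any 1 array and −0.58 after adjusting for the Y-linked level. The shift carries no test, because the pair was chosen with the values known, and it is not a ratio of transcript numbers, since probe sets differ in how they respond.

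The dim members were read beside other dim genes. The 5 members with a mean intensity of at most 100 (Adh4, Adh7, Dhrs9, Aldh1a1 and Aldh1a3) all had estimates above 0, with a median of 0.12. Among all 7007 genes that dim, 78.0% had estimates above 0 and the median was 0.14, so these 5 genes lie where dim genes lie on these arrays. After cyclic loess the median of the dim genes was 0.05, and the 5 dim members lay between 0.01 (Aldh1a3) and 0.12 (Adh7). Among the 11703 brighter genes 39.0% had estimates above 0 and the median was −0.04. Adh1, Dhrs3 and Aldh1a2, all brighter than 100, were above that median, Rdh10 was below it, and Dhrs4 was close to it. The limit of 100 was chosen after the values were seen.

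**Figure D3:**
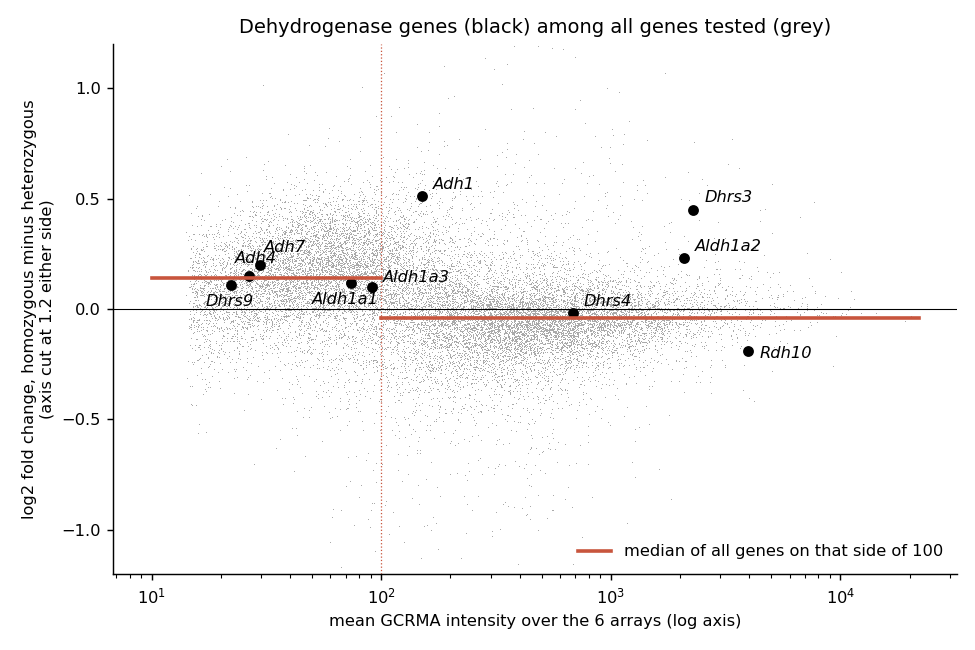
Log2 fold change, homozygous minus heterozygous, against mean GCRMA intensity over the 6 arrays (log axis) for all 18710 genes (grey; values beyond 1.2 are outside the plot) and the dehydrogenase genes (black), with red lines at the median of genes up to and above an intensity of 100 (0.14 and −0.04). The 5 dim members sit around the median of dim genes, while Adh1, Dhrs3 and Aldh1a2 sit above and Rdh10 below the median of brighter genes.

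Among other dehydrogenases of the same families 2 passed. Of 23 tested, Hsd17b6 rose and Dhrs13 fell, 21 did not pass, and the median was 0.07. That is 8.70% called, against 17.0% of all genes. Hsd17b6, a short-chain enzyme that acts on steroids and retinol, was dim, at 23.7 and 29.7 in heterozygous and homozygous spleens (means), and its log2 fold change of 0.31 (adjusted p = 0.0153 in limma) lost its call without heterozygous replicate 2 (0.32), without homozygous replicate 1 (0.27) and after adjusting for the Y-linked level (0.30). Dhrs13 went from 167 to 138, a log2 fold change of −0.27 (adjusted p = 0.0275 in limma), and lost its call without heterozygous replicate 1 or 2 (−0.25 each) or homozygous replicate 1 (−0.24), with the replicate block (−0.27) and after adjusting for the Y-linked level (−0.31). Rdh9, a member of the clustered short-chain retinol dehydrogenases, was nearest the threshold among the rest, at 0.40 (adjusted p = 0.0537), and Rdh11 and Rdh13 lay near 0 (−0.05 and −0.09).

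Of 11 genes that bind, take up, carry or store retinoids, 4 rose and none fell, with a median of 0.21 (by unadjusted limma p below 0.05, 6 were higher and 0 lower). That is 36.4% called, against 17.0% of all genes, 10.4% as higher. Crabp2, which delivers retinoic acid to the nucleus, rose by 0.43 (adjusted p = 0.0168), and Stra6, the membrane receptor that takes up retinol, by 0.41 (adjusted p = 0.00834). Stra6 kept its call in all 19 alternatives (0.38 to 0.49), while Crabp2 lost it after adjusting for the Y-linked level (0.33, adjusted p = 0.123). Fabp5, a fatty acid carrier that also binds retinoic acid, rose by 0.30 and lost its call without heterozygous replicate 1 (0.30) or 3 (0.26), without homozygous replicate 1 (0.33) or 3 (0.25) and after adjusting for the Y-linked level (0.21). Lrat, which esterifies retinol for storage, was at 0.21 (adjusted p = 0.0438) and lost its call in 13 of 18 alternatives, every refit without 1 array among them (0.20 to 0.24).

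Downstream of the dehydrogenases, Cyp26b1, which degrades retinoic acid, fell (−0.89, adjusted p = 0.0029) and Rarb, a receptor gene that retinoic acid induces, rose (0.57, adjusted p = 0.00251), both by limma and in all 19 alternatives. Of the 3 Cyp26 genes 1 rose and 1 fell, and the rise, that of the dim Cyp26c1 (0.32), was lost in 10 of 19 alternatives (0.21 to 0.36 there, 5 of the 6 refits without 1 array among them). Cyp26a1, the remaining Cyp26 gene, was dim, at 67.8 and 62.8 in heterozygous and homozygous spleens (means). It did not pass (−0.1, adjusted p = 0.566 in limma). Of the 6 retinoic acid and retinoid X receptor genes only Rarb passed.

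Marker genes of neighbouring tissues moved in the same samples as Adh1 and Dhrs3. The summed intensity of 8 exocrine pancreas markers was 669 to 1349 on heterozygous and 2129 to 2416 on homozygous arrays, and 3 of the 8 rose. Most of that difference was Cpa1, at 307 to 861 and 1600 to 1783, while the other 7 markers summed to 362 to 489 and 520 to 633. The summed intensity of 7 markers of enteric neurons and glia was 832 to 918 and 1230 to 1298, and 3 rose. Of 11 epithelium markers 3 rose, with sums of 2314 to 2976 and 2919 to 3247 that overlap. By unadjusted limma p below 0.05, 7 pancreas, 6 enteric and 7 epithelium markers were higher and 0 were lower. The called shares of these lists were 37.5%, 42.9% and 27.3%, all higher, against 17.0% of all genes, 10.4% as higher. Several of these markers had mean intensities of at most 100, and 78.0% of all genes that dim had estimates above 0. How far that shift adds to the unadjusted counts was not tested.

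Markers of the vessels and the blood went the other way. All 8 endothelium markers fell, with sums of 6987 to 7386 and 4852 to 5139, as did 6 of 9 erythroid markers, with sums of 12680 to 13648 and 9868 to 10702. By unadjusted limma p below 0.05 all 9 erythroid markers were lower. The called shares of these 2 lists were 100% and 66.7%, all lower, where 6.56% of all genes were called lower. None of 12 liver markers passed in limma (2 had an unadjusted p below 0.05), and their sums of 1787 to 2521 and 1582 to 2831 overlap. No marker of any list was at 0 on any array, but that is no proof that each is expressed. The lowest value, of a liver marker, was 22.7 on heterozygous array 3, below the lower quartile of every array (35.8 to 38.0). The part of these tissues in the values of Adh1, Dhrs3 and Aldh1a2 was not tested.

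**Figure D4:**
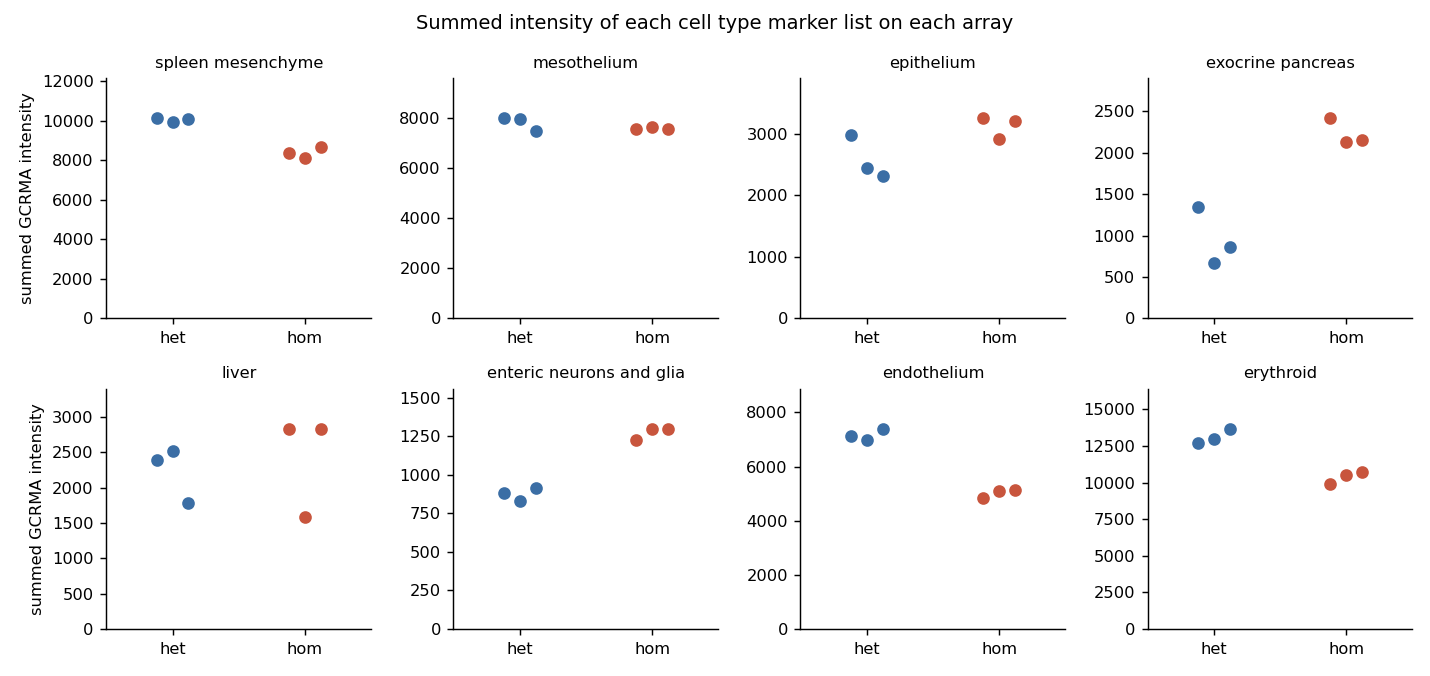
Summed GCRMA intensity (linear, from 0) of each marker list on the heterozygous (blue) and homozygous (red) arrays. Pancreas and enteric markers are higher and endothelium, erythroid and spleen mesenchyme markers lower on every homozygous array, while mesothelium, epithelium and liver sums overlap.

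The genes whose pattern over the 6 arrays was most like that of a member were found by the root mean square distance between log2 values, each less its own mean. Predicted genes and clone names were skipped, so a skipped gene may lie closer than those named. For Adh1 they were Cybrd1 (0.033), Adamts8 (0.035) and Lrrc10b (0.035), and for Dhrs3 Itga4 (0.046), Cd28 (0.046) and Fxyd3 (0.047). For Aldh1a2 they were Gcnt1 (0.024), Ccdc17 (0.026) and Etv5 (0.029), and for Rdh10 Coq3 (0.014), Impg2 (0.015) and Rad9a (0.022). With 6 arrays in 2 groups such likeness includes the difference between the groups.

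**Figure D5:**
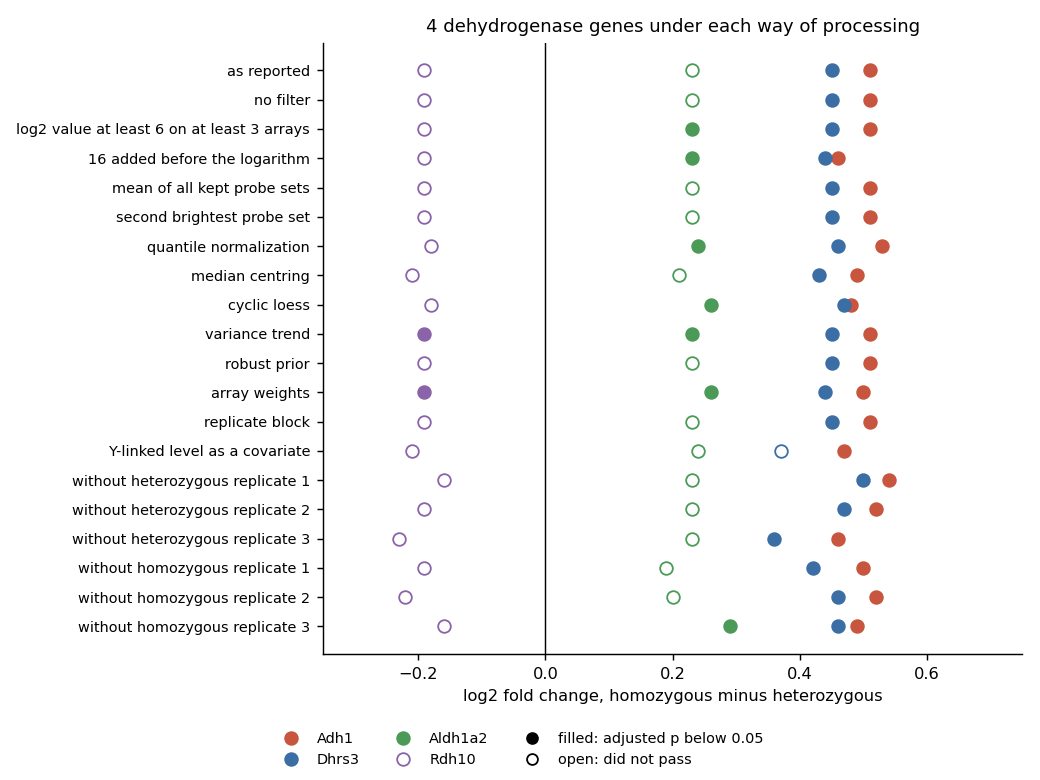
Log2 fold change, homozygous minus heterozygous, of Adh1, Dhrs3, Aldh1a2 and Rdh10 as reported and under 19 other ways of processing, filled where the adjusted p is below 0.05. Adh1 is filled throughout, Dhrs3 in all but 1, Aldh1a2 in 7 of the 19 and Rdh10 in 2, and no estimate crosses 0.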

How the data were processed

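The deposited values are intensities, 1 per probe set and array on a linear scale, which GCRMA produced, per the submitters' processing notes. Which version was run, how probe sets were defined and which genome build applied is not given in the sources used here. Of 35512 probe sets, GEO's platform annotation names 21789 with 1 gene symbol, 1621 with several and 12102 with none. Named probe sets with log2(intensity + 1) of at least 4 on at least 3 of the 6 arrays were kept (20424), and the brightest per gene was used (18710 genes). Genotypes were compared in R 4.3.3 by limma 3.58.1 (two-sided eBayes after lmFit, no covariate) over all genes, called at an adjusted p below 0.05. The fit was tested on simulated data. The members, lists, alternatives and the rule for naming genes (all 10 members, up to 4 called genes per pathway list or the 1 with the smallest p, and the 3 genes closest in pattern) were chosen with earlier results of these data known. Rdh9, Rdh11, Rdh13, Aldh1a7, Adh5, Adh6a, Adh6b, Cyp26a1, Msln and Wt1 are named outside that rule, after their values were seen. Of 3 Y-linked genes foreseen as a covariate, 2 entered the fit. The number of arrays limits the precision. Scan dates were not analysed here.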

Additional observations from a re-analysis of the deposited data

How the results depend on the processing

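With 3 arrays a group, precision is limited by their number, and dim probe sets may hold background. Adh1 kept its direction and call in all 19 alternatives and Dhrs3 in 18. After adjusting for the Y-linked level 1 member was called higher, and genes called fell from 1951 higher and 1227 lower to 1090 and 470. With a variance trend 1 member was called lower, and likewise with array weights (1), in both cases Rdh10. Without any 1 array 699 to 2319 genes were called higher and 499 to 1244 lower, and 2 or 3 members higher. The lowest counts came without homozygous replicate 1 (699 and 499), and counts were also over 1.5 times lower without heterozygous replicate 1 (1046 and 643) or 2 (820 and 556) and, for higher genes, without homozygous replicate 3 (987). Fewer arrays enter these fits. Dhrs4 (−0.02) turned to 0.03 after quantile normalization, 0.03 after cyclic loess, 0.03 without heterozygous replicate 1, 0.02 without homozygous replicate 2 and 0 after adjusting for the Y-linked level, and was −0.05 without heterozygous replicate 3. Where these changed a call the cause was not tested. Deviations of same-numbered arrays correlated at −0.01, 0.04 and −0.11, and 1 of 6 arrays correlated best with its own number. With 3 arrays a group this cannot decide whether the replicate numbers pair the samples. With the replicate block 2091 genes were higher and 1072 lower, and 2 members were higher, Adh1 (0.51, adjusted p = 0.00577) and Dhrs3 (0.45, adjusted p = 0.0105). The other choices of probe set could not move a member, since each has 1 probe set. The strict filter left out Adh4, Adh7 and Dhrs9, which have no value there.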
